A study of Caenorhabditis elegans with 36 samples.

Results

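The genes described here encode the subunits of the C. elegans proteasome. They were taken as the protein-coding genes of the WBcel235 annotation whose symbols begin with pas, pbs, rpt or rpn and a number, and 33 of 19973 protein-coding genes matched. They comprise 7 pas genes, 7 pbs genes, 6 rpt genes and 13 rpn genes. Each gene was asked whether a peak of HDA-1 or DVE-1 in a deposited peak list overlapped, by 1 bp or more, the window that reaches 500 bp to either side of its annotated 5′ end, and such a gene is called listed below.

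The proteasome is the protease of the cytosol and nucleus that takes apart proteins tagged with ubiquitin. Its core particle, the 20S, is a barrel built of rings of α subunits, which gate the entrance, and rings of β subunits, some of which carry the proteolytic sites. The regulatory particle, the 19S, caps the barrel: its base holds the ATPases that unfold the substrate and the ubiquitin receptors, and its lid holds the deubiquitinating subunit. In the worm, the transcription factor SKN-1A raises the expression of these genes when the proteasome is impaired.

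HDA-1 is a class I histone deacetylase and DVE-1 a homeodomain protein related to mammalian SATB proteins, and the study asked where both sit on chromatin with and without mitochondrial stress. Whole worms on day 1 of adulthood, grown at 20 °C from L1, were examined by ChIP-seq against GFP with GFP-Trap agarose. The series holds 18 ChIP and 18 input samples, which give 4 HDA-1 lists and 4 DVE-1 lists. All worms carried glp-4(bn2), an allele that limits germ cell proliferation at the restrictive temperature. The HDA-1 strain added the transgene hda-1p::hda-1::gfp, made with the marker odr-1p::dsRed, and the DVE-1 strain added dve-1p::dve-1::gfp. In each, the tagged protein was expressed from its gene's own promoter on top of the endogenous protein. HDA-1 worms were fed L4440 (the empty vector, control), L4440 and atp-2, dve-1, or dve-1 and atp-2 RNAi, and DVE-1 worms L4440, L4440 and atp-2, hda-1, or hda-1 and atp-2 RNAi. atp-2 encodes the β subunit of the mitochondrial ATP synthase, and its RNAi is the stress in this study. Each list came from 2 ChIP samples, or 3 in both dve-1 conditions, and the files hold 1 list per condition with no score. There is thus no spread between samples to set a difference against, no test was possible, and a gene that is not listed may still carry signal below the peak caller's limit. The tissue a peak came from, the efficiency of each knockdown and binding in worms without a tag cannot be read from these lists. The study also reported less HDA-1 protein in hda-1p::hda-1::gfp worms on dve-1 RNAi, and less DVE-1 protein on hda-1 RNAi. The amount of tagged protein may thus differ between lists with and without RNAi of the other protein. Its part in the differences below was not tested. The HDA-1 lists held 6794 (control), 6634 (atp-2), 8512 (dve-1) and 9862 (dve-1 + atp-2) peaks, and the DVE-1 lists 4279 (control), 6484 (atp-2), 6962 (hda-1) and 8221 (hda-1 + atp-2) peaks.

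HDA-1 was listed near the 5′ ends of most proteasome genes in every condition. HDA-1 was listed at 29 of the 33 genes (87.9%) under control RNAi, against 31.8% of all protein-coding genes. It was listed at 29 with atp-2 RNAi (all genes 31.3%), at 28 (84.8%) with dve-1 RNAi (all genes 27.8%) and at 29 with both (all genes 31.8%). The share of proteasome genes with HDA-1 was therefore 84.8 to 87.9% with and without mitochondrial stress or dve-1 RNAi. This holds for an overlap of 1 bp or more with the window. The 5′ end itself lay inside an HDA-1 peak at 81.8 (control), 63.6 (atp-2), 75.8 (dve-1) and 72.7% (dve-1 + atp-2). Over all genes it did so at 25.1, 24.1, 19 and 21.4%. DVE-1 was listed at fewer of them under control RNAi, 13 of 33 (39.4%) against 19.9% of all genes. With atp-2 RNAi it was listed at 23 (69.7%) against 31.2% of all genes. With hda-1 RNAi it was listed at 13 (39.4%) against 29.9%, and with hda-1 and atp-2 RNAi at 18 (54.5%) against 34.9%.

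**Figure D1:**
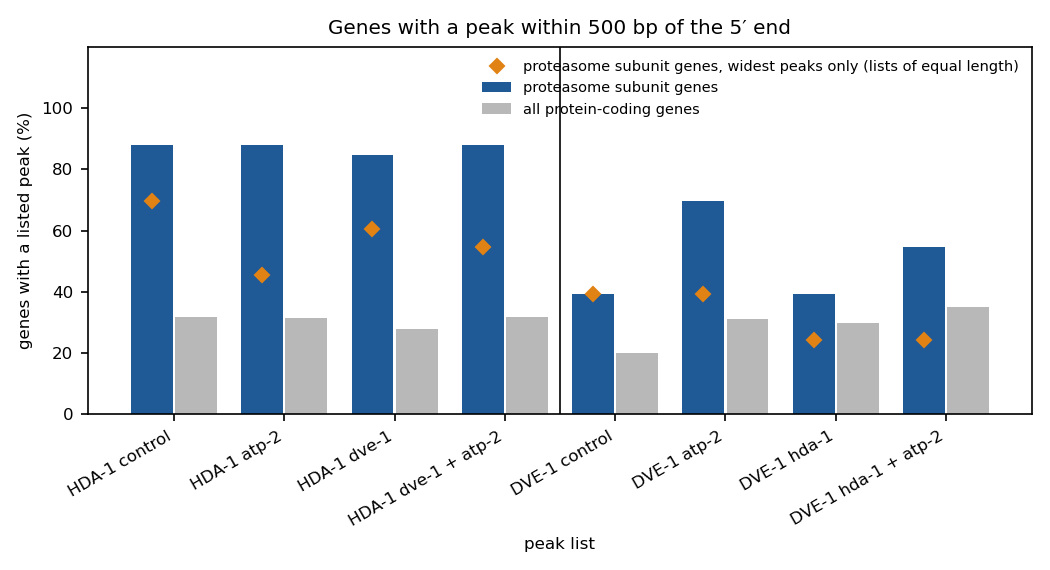
Percentage of the 33 proteasome subunit genes (blue bars) and of all 19973 protein-coding genes (grey bars) with a peak within 500 bp of the 5′ end, for each of the 8 lists on the x axis. The orange diamonds give the proteasome genes when only the 4279 widest peaks of each list were kept, where the DVE-1 control and atp-2 lists both stand at 39.4%.

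The upstream regions of 5 of these genes stand for the main patterns described below, though a peak need not cover the whole of the printed stretch. They are the 250 bases that end just before the 5′ end, read on the gene's own strand from the RefSeq sequence of WBcel235. rpt-6 (III:12370206-12370455, + strand) had both proteins in all 8 lists. pas-6 (V:5584344-5584593, − strand) had HDA-1 in all 4 lists and DVE-1 in none. rpt-2 (V:6017670-6017919, − strand) had HDA-1 in all 4 and DVE-1 in both atp-2 lists only. rpn-12 (II:11652874-11653123, + strand) had DVE-1 in the atp-2 list alone, and rpn-13 (III:6341929-6342178, − strand) had all 8. At rpn-13, for example, the 4 DVE-1 peaks and the HDA-1 peak of the atp-2 list ended upstream of its marked word. Capitals in rpt-6, pas-6, rpt-2 and rpn-12 mark a SKN-1-type word, and in rpn-13 the GATA-type word CTTATCA.
rpt-6: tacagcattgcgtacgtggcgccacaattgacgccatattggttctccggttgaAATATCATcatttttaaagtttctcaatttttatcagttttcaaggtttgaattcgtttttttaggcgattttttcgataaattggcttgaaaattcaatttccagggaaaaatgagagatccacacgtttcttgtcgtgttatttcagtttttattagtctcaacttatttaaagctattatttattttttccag
pas-6: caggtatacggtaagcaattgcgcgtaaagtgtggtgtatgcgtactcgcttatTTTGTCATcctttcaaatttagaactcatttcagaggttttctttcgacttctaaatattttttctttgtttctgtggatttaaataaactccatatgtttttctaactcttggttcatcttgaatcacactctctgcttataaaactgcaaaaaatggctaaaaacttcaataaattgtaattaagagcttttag
rpt-2: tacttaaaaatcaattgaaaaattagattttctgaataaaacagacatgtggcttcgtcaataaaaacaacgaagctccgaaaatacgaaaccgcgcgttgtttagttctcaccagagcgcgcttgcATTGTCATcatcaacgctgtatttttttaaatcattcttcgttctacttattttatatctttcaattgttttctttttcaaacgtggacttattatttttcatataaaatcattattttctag
rpn-12: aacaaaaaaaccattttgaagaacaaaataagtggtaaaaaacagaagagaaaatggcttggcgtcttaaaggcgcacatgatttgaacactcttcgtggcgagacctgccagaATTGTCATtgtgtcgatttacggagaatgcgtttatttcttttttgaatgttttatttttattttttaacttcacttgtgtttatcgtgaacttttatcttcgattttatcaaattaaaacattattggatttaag
rpn-13: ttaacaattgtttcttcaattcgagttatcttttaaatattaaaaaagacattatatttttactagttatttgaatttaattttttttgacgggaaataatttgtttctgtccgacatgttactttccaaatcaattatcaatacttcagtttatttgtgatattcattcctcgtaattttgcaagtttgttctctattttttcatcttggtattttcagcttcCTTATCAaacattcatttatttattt

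SKN-1-type words were searched as AATATCAT, AATGTCAT, ATTATCAT, ATTGTCAT, TATATCAT, TATGTCAT, TTTATCAT and TTTGTCAT on both strands of the 300 bases from 250 before to 49 after the base at the annotated 5′ end. They were found at 11 of 33 proteasome genes (33.3%) and at 16.5% of all genes in windows of the same length. The 11 genes were pas-2, pas-6, pbs-1, pbs-6, rpt-2, rpt-6, rpn-2, rpn-5, rpn-8, rpn-11 and rpn-12. The word began 196 bases before the 5′ end in both rpt-6 and pas-6, 123 before it in rpt-2 and 136 before it in rpn-12. Of the 25 genes with HDA-1 in all 4 lists 10 had the word, of the 23 genes with DVE-1 in any list 9 had it, and of the 10 genes with DVE-1 in none 2 had it (pas-6 and pbs-6). The share over all genes with the same listing was not counted, so no link between word and listing can be read from these small counts. CTTATCA, which shares the letters TTATCA with some of these words but cannot fall on the same bases, was found at 1 proteasome gene (3.03%), rpn-13, and at 9.19% of all genes. CTGCGTCTC was found at 0 proteasome genes and at 2.93% of all genes. In rpt-6, pas-6, rpt-2 and rpn-12 the printed sequence ends in AG, the last bases of a splice acceptor, and the same was so at 24 of the 33 genes (72.7%) against 27.6% of all genes. Annotated 5′ ends of worm genes are often trans-splice sites, which lie downstream of the place where transcription starts.

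The 20S core genes carried HDA-1 nearly throughout. Of the 7 α ring genes, HDA-1 was listed at 6 (control), 7 (atp-2), 6 (dve-1) and 7 (dve-1 + atp-2), and DVE-1 at 2 (control), 4 (atp-2), 2 (hda-1) and 3 (hda-1 + atp-2). pas-3 and pas-5 had both proteins in all 8 lists. At pas-3 the 8 peaks covered the 5′ end and the whole gene body, with widths of 1458 to 2116 bp. At pas-5 the HDA-1 peaks covered the 5′ end in all 4 lists, whereas the DVE-1 peaks ended 5′ of it at −110 (control), −47 (atp-2), −139 (hda-1) and −107 (hda-1 + atp-2), counted in bp from the 5′ end with negative values upstream. pas-1, pas-4 and pas-6 had HDA-1 in all 4 lists and DVE-1 in none. At pas-1, however, a DVE-1 peak of the atp-2 list from −1047 to −538 fell just outside the window. The HDA-1 peak of the atp-2 list ran there from −1102 to −458 and covered 43 bp of the window. The nearest DVE-1 peaks of the hda-1 and hda-1 + atp-2 lists lay 700 and 685 bp upstream of pas-1. pas-4 had narrow HDA-1 peaks of 630 bp (control), 487 bp (atp-2), 306 bp (dve-1) and 411 bp (dve-1 + atp-2), each across the 5′ end.

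Of the 7 β ring genes, HDA-1 was listed at 7, 6, 7 and 7 in the same order of lists, and DVE-1 at 2, 4, 2 and 4. pbs-3 was the β ring gene with all 8 lists, and its DVE-1 peaks were 397, 434, 309 and 420 bp wide, all within 354 bp upstream and 103 bp downstream of the 5′ end. The catalytic β subunits are encoded by pbs-1, pbs-2 and pbs-5. pbs-1 lacked DVE-1 in the hda-1 list alone, and pbs-2 lacked DVE-1 in the control list alone. pbs-5, the gene of the chymotrypsin-like subunit, had no DVE-1 peak in any list and lacked HDA-1 with atp-2 RNAi, where the nearest HDA-1 peak lay 911 bp upstream. pbs-4 and pbs-6 had HDA-1 in all 4 lists and no DVE-1 peak in any.

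Among the 6 ATPase genes of the 19S base, HDA-1 was listed at 5 (control), 5 (atp-2), 3 (dve-1) and 3 (dve-1 + atp-2), and DVE-1 at 2 (control), 4 (atp-2), 1 (hda-1) and 3 (hda-1 + atp-2). rpt-3 and rpt-5 had HDA-1 only without dve-1 RNAi. At rpt-5 the HDA-1 peaks lay at the upstream edge of the window, from −737 to −368 (control) and −695 to −386 (atp-2). At rpt-3 the peak ran from −815 to 34 across the 5′ end (control) and from −818 to −475 (atp-2). With dve-1 and atp-2 RNAi a peak from −742 to −530 at rpt-3 fell 30 bp outside the window. rpt-4 was listed in none of the 8 lists. Its second annotated 5′ end, 2554 bp from the first, had an HDA-1 peak in all 4 HDA-1 lists.

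Among the 4 non-ATPase genes of the base, HDA-1 was listed at 3 in each of the 4 lists and DVE-1 at 1 (control), 3 (atp-2), 3 (hda-1) and 3 (hda-1 + atp-2). rpn-1 and rpn-2, which encode the scaffold subunits, lacked DVE-1 in the control list alone. rpn-10 and rpn-13 encode ubiquitin receptors and differed entirely, with 0 lists for rpn-10 and 8 for rpn-13. The nearest peaks to rpn-10 lay 982 to 1231 bp upstream in the 8 lists, and mrpl-9, the gene that ends 119 bp before rpn-10 on the same strand, was listed in all 8.

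Of the 9 lid genes, HDA-1 was listed at 8, 8, 9 and 9, and DVE-1 at 6 (control), 8 (atp-2), 5 (hda-1) and 5 (hda-1 + atp-2). rpn-3, rpn-6.1, rpn-7, rpn-8 and rpn-9 had all 8 lists. At rpn-6.1 every one of the 8 peaks covered the whole window, with starts from −994 to −582 and ends from 737 to 1278. rpn-6.2, its paralogue, had no DVE-1 peak and had HDA-1 only with dve-1 RNAi, at 229 bp wide (dve-1) and 752 bp wide (dve-1 + atp-2). A second annotated 5′ end of rpn-6.2, 1118 bp away, had a peak in 5 of the 6 lists that lacked one at the first. rpn-11, which encodes the deubiquitinating subunit, had HDA-1 in all 4 lists and DVE-1 without hda-1 RNAi only, at 472 bp wide (control) and 491 bp wide (atp-2).

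**Figure D2:**
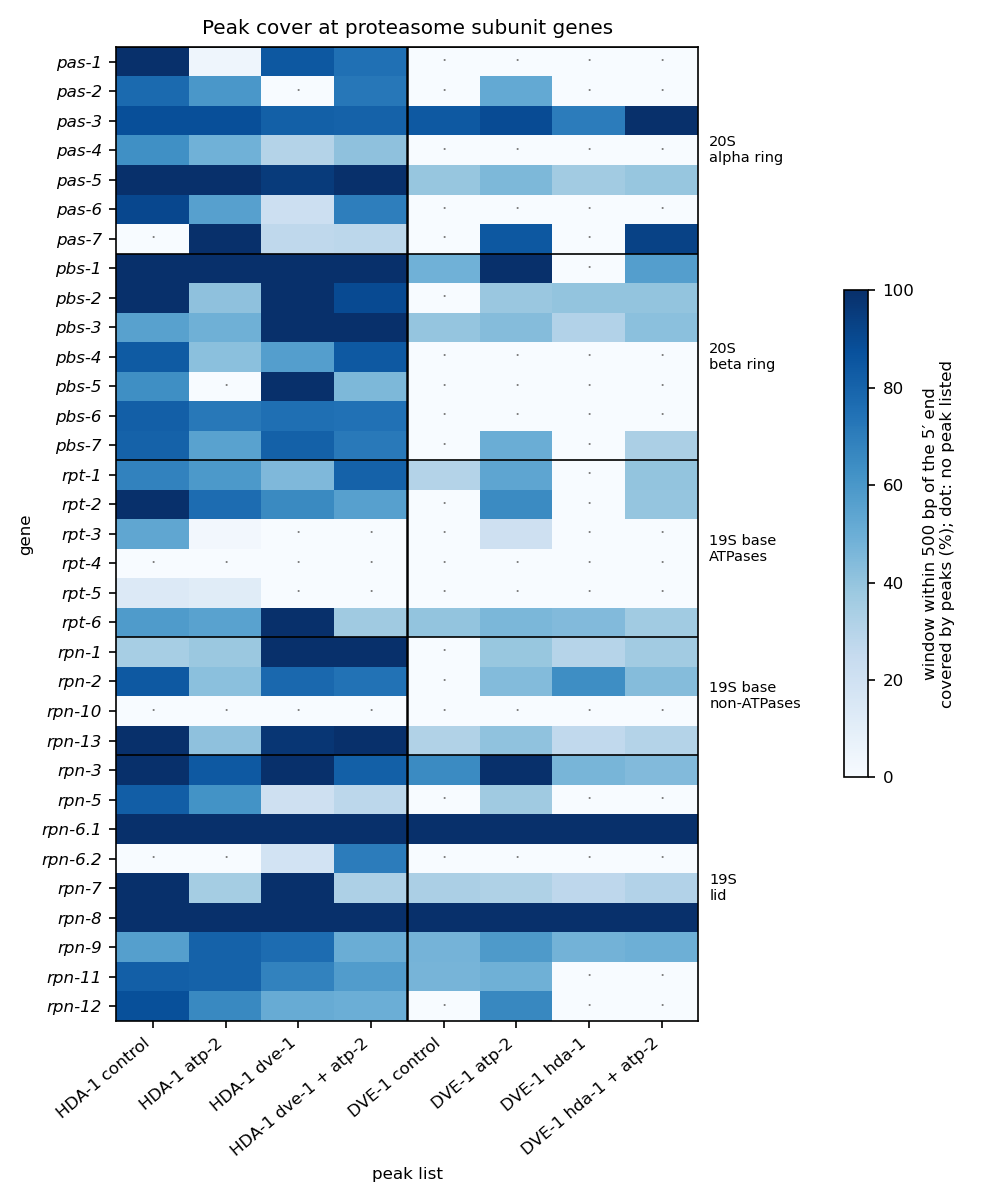
Percentage of the window within 500 bp of the 5′ end that peaks cover, for each proteasome gene (y axis, grouped by place in the particle) in each of the 8 lists (x axis), with a dot where no peak was listed. The HDA-1 columns are filled at 28 or 29 genes each, the DVE-1 columns at 13, 23, 13 and 18 genes.

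Over all 8 lists, 10 of the 33 genes were listed in each (30.3%, all genes 14.2%), and these were pas-3, pas-5, pbs-3, rpt-6, rpn-13, rpn-3, rpn-6.1, rpn-7, rpn-8 and rpn-9. rpt-4 and rpn-10 were listed in none (6.06%, all genes 53.5%). HDA-1 was in all 4 of its lists at 25 genes (75.8%, all genes 22.7%) and DVE-1 in all 4 of its lists at 10 genes (30.3%, all genes 17.7%). DVE-1 was in no list at 10 genes (30.3%, all genes 60.9%), namely pas-1, pas-4, pas-6, pbs-4, pbs-5, pbs-6, rpt-4, rpt-5, rpn-10 and rpn-6.2. Of these, pas-1, pas-4, pas-6, pbs-4 and pbs-6, all of the 20S core, had HDA-1 in all 4 lists (5 of 33, 15.2%, all genes 1.56%). This class depends on the window, as DVE-1 peaks of the atp-2 list lay 538 bp from the 5′ end at pas-1 and 803 bp at pbs-6. The lists of both proteins were then set side by side under control RNAi, under atp-2 RNAi and under RNAi of the partner protein, where HDA-1 worms received dve-1 and DVE-1 worms hda-1 RNAi. In each of the 4 pairs, every proteasome gene with DVE-1 also had HDA-1. This held for 13 of 13 genes under control RNAi (all genes 92.5%), 23 of 23 with atp-2 (all genes 85.3%), 13 of 13 with RNAi of the partner protein (all genes 66.7%) and 18 of 18 with partner and atp-2 RNAi (all genes 70.2%). These shares are to be read beside that of HDA-1 itself, 84.8 to 87.9% of proteasome genes and 27.8 to 31.8% of all genes. Of the genes with HDA-1, DVE-1 was listed at 13 of 29 (44.8%, all genes 57.9%), 23 of 29 (79.3%, all genes 85.2%), 13 of 28 (46.4%, all genes 71.6%) and 18 of 29 (62.1%, all genes 76.9%) in the same order. With atp-2 RNAi the share of proteasome genes with HDA-1 that also had DVE-1 thus lay close to that of all genes. In the other pairs it was lower. The 4 pairs cover the same 33 genes and are not separate evidence.

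With atp-2 RNAi, DVE-1 was listed at 10 proteasome genes where it was not listed under control RNAi, out of 20 (50%), against 15.2% of all genes. The 10 genes came from every part of the particle: pas-2 and pas-7, pbs-2 and pbs-7, the ATPase genes rpt-2 and rpt-3, the scaffold genes rpn-1 and rpn-2, and the lid genes rpn-5 and rpn-12. None of the 13 genes with DVE-1 under control RNAi lost it (all genes 4.05%). Of these 10 genes 9 already had HDA-1 under control RNAi, the exception being pas-7, where neither protein was listed under control RNAi and both were with atp-2. Among genes with HDA-1 and without DVE-1 under control RNAi, DVE-1 appeared at 9 of 16 (56.2%), a share close to the 55.4% of all such genes. HDA-1 was listed at all 10 in the atp-2 list. The downstream limit of the DVE-1 peak lay within 100 bp of that of the HDA-1 peak at 7 of the 10 genes, the upstream limit at 4, and both at 3, pas-2, pbs-7 and rpn-2. At rpn-2 it ran from −628 to −62 and the HDA-1 peak from −609 to −81. At pbs-7 it ran from −350 to 149 and the HDA-1 peak from −375 to 177. At pas-2 it ran from −429 to 93 and the HDA-1 peak from −423 to 176. At pbs-2 and rpn-12 the DVE-1 peak began far upstream of the HDA-1 peak, at −6017 and −2483 in pbs-2 and at −6968 and −926 in rpn-12.

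The DVE-1 count depends on which peaks are kept. When each list was reduced to its 4279 widest peaks, which alters length and width together, DVE-1 was listed at 13 proteasome genes under control RNAi and at 13 with atp-2 RNAi, with 4 gained and 4 lost, while 19.9% and 22.7% of all genes were listed. In worms on hda-1 RNAi, fewer genes differed with atp-2 RNAi. DVE-1 was gained at 5 of 20 genes (25%, all genes 9.11%), pas-7, pbs-1, pbs-7, rpt-1 and rpt-2, and lost at 0 of 13 (all genes 4.65%). pas-7, pbs-7 and rpt-2 had DVE-1 in both atp-2 lists and in neither of the others (3 of 33, 9.09%, all genes 2.59%). Whether atp-2 RNAi acted differently in the 2 backgrounds was not tested.

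hda-1 RNAi in turn was set against control RNAi. DVE-1 was gained at 3 of 20 genes (15%, all genes 14.4%), pbs-2, rpn-1 and rpn-2, and lost at 3 of 13 (23.1%, all genes 7.93%), pbs-1, rpt-1 and rpn-11. Under atp-2 RNAi, hda-1 RNAi went with the loss of DVE-1 at 5 of 23 genes (21.7%, all genes 9.92%), pas-2, rpt-3, rpn-5, rpn-11 and rpn-12, and with a gain at 0 of 10 (all genes 9.75%). rpn-11 thus lacked DVE-1 in both hda-1 lists. At rpn-12 the DVE-1 peak of the atp-2 list ran from −6968 to 164, and in the other 3 DVE-1 lists the nearest peak ended 3263 to 3314 bp upstream.

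The listing of HDA-1 differed between conditions at few proteasome genes. With atp-2 RNAi it was gained at 1 of 4 (pas-7, all genes 3.98%) and lost at 1 of 29 (pbs-5, 3.45%, all genes 10.2%). Within dve-1 RNAi, atp-2 RNAi went with a gain at 1 of 5 (pas-2, all genes 7.47%) and a loss at 0 of 28 (all genes 4.95%). dve-1 RNAi against control went with gains at 2 of 4 (pas-7 and rpn-6.2, all genes 4.81%) and losses at 3 of 29 (pas-2, rpt-3 and rpt-5, 10.3%, all genes 22.8%). Within atp-2 RNAi it went with gains at 2 of 4 (pbs-5 and rpn-6.2, all genes 8.43%) and losses at 2 of 29 (rpt-3 and rpt-5, 6.9%, all genes 16.7%).

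Although the HDA-1 lists named nearly the same proteasome genes with and without atp-2 RNAi, the peaks were narrower with it. HDA-1 was listed in both the control and the atp-2 list at 28 proteasome genes, and at 27 of them (96.4%) the peak was narrower with atp-2 RNAi, against 59.9% of all genes listed in both. This comparison was added after the values were seen. The exception was rpn-1, with 618 bp (control) and 730 bp (atp-2). The median width over the 28 genes was 1935 bp (control) and 687.5 bp (atp-2), with a median ratio of 0.719 per gene, against 1589 and 1479 bp and a ratio of 0.963 over all genes. At 10 of the 28 (35.7%) the peak with atp-2 RNAi was less than 50% as wide, against 8.81% of all genes. Width is that of the widest peak overlapping the window, so separate peaks further along the gene are not counted in it. Counting all peaks, the median gene body cover at listed proteasome genes was 38.8% (control) and 17.2% (atp-2). Over all listed genes it was 16.1 and 13.6%. The difference in width lay mostly on the side of the gene body. The downstream end of the peak lay further upstream with atp-2 RNAi at 24 of 28 genes (85.7%, all genes 57.8%), and its median place was 658 bp (control) and 168 bp (atp-2) downstream of the 5′ end, against 315 and 259 bp over all genes.

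At rpn-13 the HDA-1 peak ran from −4990 to 3233 under control RNAi (III:6338695-6346918) and from −721 to −90 with atp-2 RNAi (III:6342018-6342649). With atp-2 RNAi, 39.2% of the rpn-13 gene body was still covered by HDA-1 peaks outside the window (control 100%). Such cover was also left at pas-1 (26.1%) and pbs-2 (10.7%), whose peaks in the window ended upstream of the 5′ end as well. It was 0% at rpt-3, rpt-5, rpn-1, rpn-2 and rpn-7, the other genes with such peaks. At pas-6 the HDA-1 peak ran from −410 to 4336 and from −516 to 60, at pbs-4 from −335 to 2093 and from −287 to 133, and at rpn-7 from −663 to 704 and from −632 to −146. At pas-6, pbs-4 and rpn-7 the upstream limits of both peaks thus lay close together, and the downstream limits lay far apart. The widest HDA-1 peaks under control RNAi were at rpn-8 (11261 bp), rpn-13 (8224 bp) and pas-5 (7823 bp), and with atp-2 RNAi they measured 10598, 632 and 3226 bp. The widest DVE-1 peaks under control RNAi were at rpn-3 (4774 bp), rpn-8 (4574 bp) and rpn-13 (4152 bp), and with atp-2 RNAi they measured 7431, 4680 and 4470 bp.

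**Figure D3:**
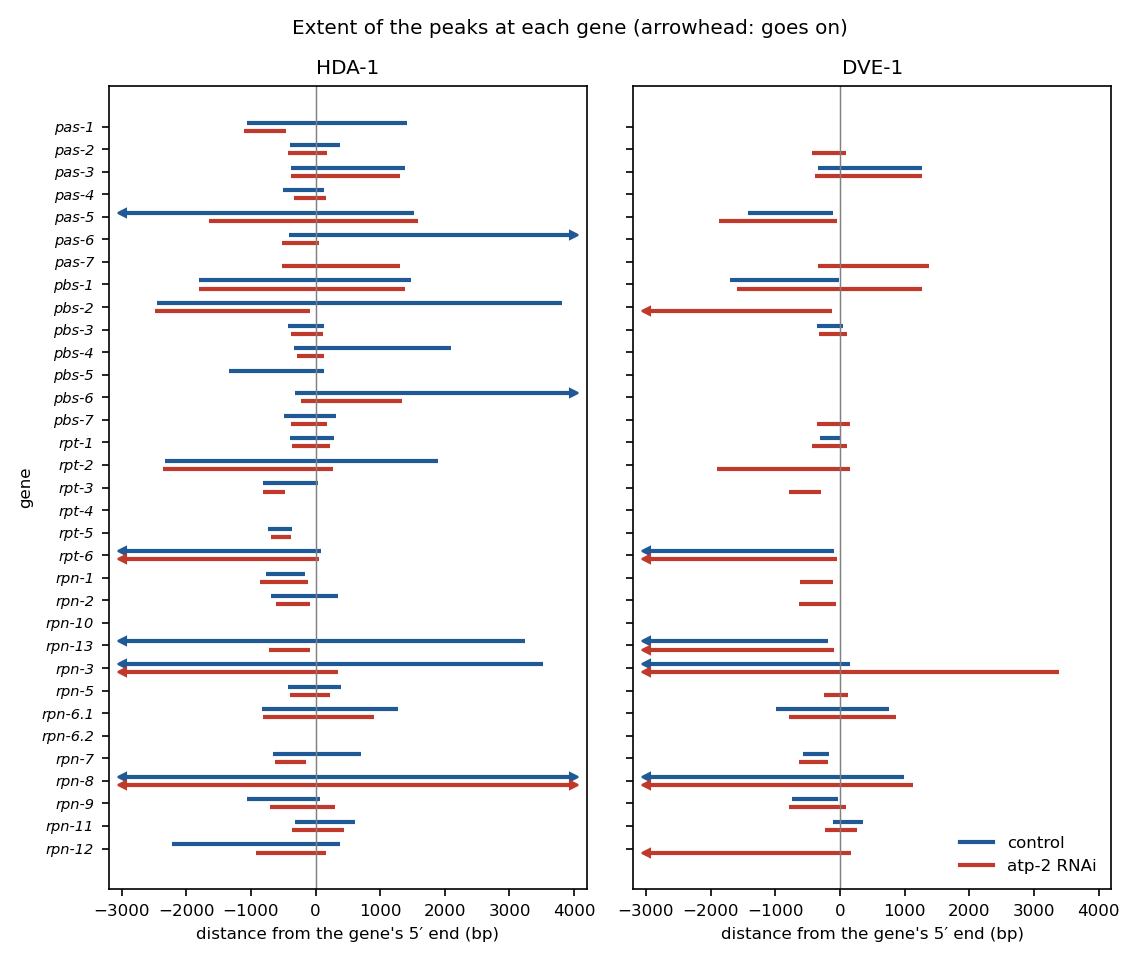
Extent of the HDA-1 (left) and DVE-1 (right) peaks at each proteasome gene (y axis) under control RNAi (blue) and atp-2 RNAi (red), as the distance in bp from the 5′ end in the direction of transcription (x axis). An arrowhead marks a peak that goes on beyond the axis, and a gene with no bar had no listed peak. Only peaks that reach the window within 500 bp of the 5′ end are drawn. HDA-1 peaks were narrower with atp-2 RNAi at 27 of the 28 genes with both, though at rpn-8 both bars fill the axis and look alike.

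The same comparison did not come out alike in the other pairs of lists with and without atp-2 RNAi. Within dve-1 RNAi, the HDA-1 peak was narrower with atp-2 RNAi at 13 of 28 genes (46.4%, all genes 40.4%), with a median ratio of 1.02. The DVE-1 peak was narrower with atp-2 RNAi at 2 of 13 genes (15.4%, all genes 24.9%), and within hda-1 RNAi at 6 of 13 (46.2%, all genes 33%). RNAi of the partner was compared in the same way, though the amount of tagged protein may differ there, as given above. The HDA-1 peak was narrower with dve-1 RNAi than under control RNAi at 19 of 26 genes (73.1%, all genes 78.6%). Its median ratio was 0.738 (all genes 0.722). Within atp-2 RNAi it was narrower with dve-1 RNAi at 15 of 27 (55.6%, all genes 71.1%). The DVE-1 peak was narrower with hda-1 RNAi at 8 of 10 genes (80%, all genes 47.5%), and within atp-2 RNAi at 15 of 18 (83.3%, all genes 63%). At rpn-13 the HDA-1 peak was 2229 bp wide with dve-1 RNAi and 3069 bp wide with dve-1 and atp-2 RNAi. With only the 4279 widest peaks of each list, HDA-1 was listed at 23 proteasome genes (control) and 15 (atp-2), with 2 gained and 10 lost, against 22.7% and 22.3% of all genes. The whole HDA-1 lists covered 13830387 bp (control) and 12537091 bp (atp-2), and the part of this list-wide difference in the narrower peaks was not tested.

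HDA-1 reached further into the proteasome genes than DVE-1 did. Where both were listed, the HDA-1 peak ended further downstream than the DVE-1 peak at 13 of 13 genes under control RNAi, against 69% of all genes with both. It did so at 17 of 23 with atp-2 RNAi (73.9%, all genes 46.5%), at 12 of 13 with RNAi of the partner (92.3%, all genes 45.6%) and at 16 of 18 with partner and atp-2 RNAi (88.9%, all genes 40%). The median ends of the HDA-1 and DVE-1 peaks were 1278 and 4 bp from the 5′ end under control RNAi (all genes 516 and 295), 230 and 112 bp with atp-2 RNAi (all genes 276 and 281), 829 and −34 bp with partner RNAi (all genes 262 and 239), and 670.5 and −3.5 bp with partner and atp-2 RNAi (all genes 213 and 237). The DVE-1 peak ended upstream of the 5′ end at 6 of 13 genes (control), 8 of 23 (atp-2), 9 of 13 (hda-1) and 10 of 18 (hda-1 + atp-2), which makes 46.2, 34.8, 69.2 and 55.6% against 23.5, 18.9, 25.4 and 24% of all genes with both. HDA-1 ended upstream at 0 of 13, 6 of 23 (26.1%), 0 of 13 and 3 of 18 (16.7%) of the same genes, against 11.8, 17.6, 23.6 and 25.7% of all genes with both, so its share with atp-2 RNAi was above that of all genes. At rpn-7 the DVE-1 peaks ended at −168, −180, −226 and −189 and never reached the 5′ end. Peak ends were not counted in other gene families. The 5′ end lay inside a DVE-1 peak at 7 of 13, 15 of 23, 4 of 13 and 8 of 18 listed proteasome genes. For listed cytosolic ribosomal protein genes it was 24 of 60, 36 of 72, 23 of 65 and 19 of 70. AG also preceded the annotated 5′ end at 72.7% of proteasome genes against 27.6% of all genes, and its part in these distances was not tested. HDA-1 and DVE-1 came from different strains and separate lists, and differences between those in enrichment or depth cannot be told apart from a difference between the proteins.

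Read along the gene, peaks were most frequent just upstream of the 5′ end. Under control RNAi, HDA-1 covered 28 of the 33 genes (84.8%) from −300 to −175 bp, 27 at the 5′ end and 13 (39.4%) at 1000 bp downstream. With atp-2 RNAi it covered 26 (78.8%) from −200 to −150 bp, 21 at the 5′ end and 8 (24.2%) at 1000 bp downstream. DVE-1 covered at most 12 (36.4%) from −300 to −200 bp under control RNAi and 22 (66.7%) from −225 to −200 bp with atp-2 RNAi, with 7 and 15 at the 5′ end. Over all genes, the highest cover was 27.2 (control) and 26.5% (atp-2) for HDA-1 and 16.6 and 26.9% for DVE-1. At the 5′ end it was 25.1 and 24.1% for HDA-1 and 14.4 and 23.9% for DVE-1, and at 1000 bp downstream it was 10.7 and 10% for HDA-1.

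**Figure D4:**
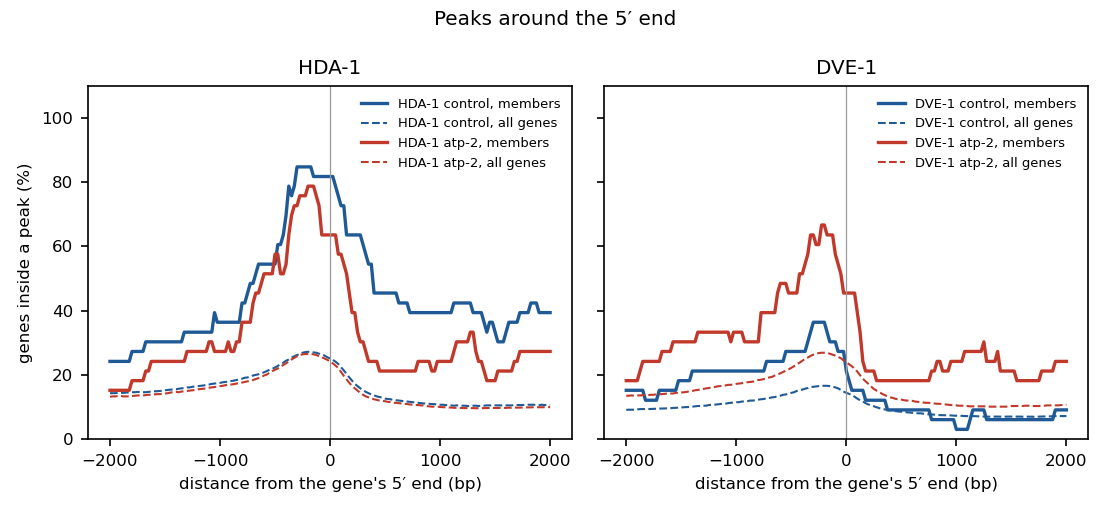
Percentage of genes inside a peak at each distance from the 5′ end (x axis, bp, negative upstream) for HDA-1 (left) and DVE-1 (right), under control RNAi (blue) and atp-2 RNAi (red). Solid lines are the 33 proteasome genes and dashed lines all protein-coding genes. All solid lines are highest upstream of 0, and the HDA-1 control line lies above the atp-2 line at 0 (81.8 and 63.6%) and at 1000 bp (39.4 and 24.2%).

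Most proteasome genes share their upstream region with another gene. At 21 of the 33 (63.6%, all genes 17.7%) another protein-coding gene on the opposite strand began within 1000 bp upstream, head to head with the proteasome gene. In 123 of the 123 listings at these 21 genes, the same peak also reached the window of the other gene, so these peaks cannot be assigned to the proteasome gene alone. The paired 5′ ends lay from 89 bp (rpn-6.1) to 790 bp (pas-6) apart, so the windows of each pair overlapped. The count thus follows in large part from the choice of window. The matching share over all head-to-head genes was not counted, so no trait of the proteasome genes can be read from it. The neighbours included eif-6 (pbs-2, 666 bp apart), rpb-3 (pas-4, 277 bp), hsp-110 (rpn-3, 444 bp), scc-1 (rpn-5, 294 bp) and rad-23 (rpn-12, 395 bp), which encode a ribosome assembly factor, an RNA polymerase II subunit, a chaperone, a cohesin subunit and a shuttle that carries ubiquitinated proteins to the proteasome. rad-23 was listed in the same 5 lists as rpn-12. HDA-1 under control RNAi was listed at 19 of the 21 (90.5%), against 51.7% of all head-to-head genes, and DVE-1 at 7 (33.3%, all head-to-head genes 30%) under control and 16 (76.2%, all head-to-head genes 48%) with atp-2 RNAi. Of the 12 other proteasome genes, only rpt-3 was among the 10 that gained DVE-1 with atp-2 RNAi. Of the 33 genes, 8 began within 500 bp behind a gene on the same strand, 1 of them, rpn-6.2, also being head to head. The genes lay on chromosomes I (10), II (7), III (8), IV (3) and V (5), with 0 on X.

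Genes that work with the proteasome were mixed. Of 20 partners and regulators, HDA-1 was listed at 13 (control), 12 (atp-2), 13 (dve-1) and 13 (dve-1 + atp-2), and DVE-1 at 10 (control), 12 (atp-2), 12 (hda-1) and 12 (hda-1 + atp-2). For HDA-1 this makes 65, 60, 65 and 65%, against 31.8, 31.3, 27.8 and 31.8% of all genes. For DVE-1 it makes 50, 60, 60 and 60%, against 19.9, 31.2, 29.9 and 34.9%. Of the 20, 10 were in all 8 lists (all genes 14.2%) and 7 in none (all genes 53.5%). The ubiquitin genes ubq-1 and ubq-2, the E1 gene uba-1, the deubiquitinase genes ubh-4 and usp-14, the shuttle gene ubql-1, the segregase genes cdc-48.1 and cdc-48.2, aip-1 and skn-1 were listed in all 8. dss-1, which encodes a small lid subunit that the symbol rule leaves out, was listed in none, as were psmd-9, npl-4.1, npl-4.2, png-1, sel-1 and sel-11. ddi-1, whose protease processes SKN-1A, had every list but DVE-1 control, and ufd-1 had 5. Among other large complexes, cytosolic ribosomal protein genes had HDA-1 at 73 of 78 under control RNAi and DVE-1 at 60 of 78, which became 72 with atp-2 RNAi. CCT chaperonin genes had HDA-1 at 7 of 8 and DVE-1 at 6 and 7. The lid's relatives differed from each other, with HDA-1 at 8 of 11 eIF3 genes and 1 of 6 COP9 signalosome genes, and DVE-1 at 4 and 7 of the eIF3 genes and 1 and 1 of the COP9 genes. Beside these counts, all genes had HDA-1 at 31.8% (control) and DVE-1 at 19.9% (control) and 31.2% (atp-2).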

How the data were processed

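The peak lists from GFP ChIP-seq of both strains were used as deposited. The authors trimmed reads with Trim Galore, aligned them to ce11 with BWA (0.7.13-r1126), removed duplicates with Picard (2.17.6) and called broad peaks with MACS2 (2.1.1). The 8 deposited lists give chromosome, start and end only, 1 list per condition, and how replicates were joined is not given in the sources used here. Input samples were not analysed separately, and 0 columns of per-sample values were left unused. All peaks lay within the chromosomes of WBcel235, the same assembly as ce11. Genes came from its annotation (release 115). Overlaps were computed in Python 3.11.15, tested on simulated data, and checked against bedtools 2.31.1, which gave the same genes in 8 of 8 lists. A gene was listed where a peak overlapped its 5′ end ± 500 bp by 1 bp or more. Gained and lost genes were counted between lists with no test, beside the percentage of all protein-coding genes. Genes were named where listed in all 8 or 0 lists, where listing changed with atp-2 RNAi, for the 3 widest control peaks of each protein, and for rpn-6.1, rpn-6.2, pbs-5 and rpn-10. Other genes are named to account for counts and were chosen after their values were seen. The genes, lists and motifs were chosen with earlier results of these data known. Alternatives were other windows, 50% cover, the widest peaks only, any transcript's 5′ end, and leaving out genes close to others.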

Additional observations from a re-analysis of the deposited data

How the results depend on the processing

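No paired analysis was possible because there is 1 peak list per condition, and for the same reason no replicate could be left out. The 28 counts (genes listed, listed for both proteins, gained or lost) were recomputed under 9 alternatives and are given here where a count moved by more than 1.5 times, as percentages of all 33 genes (25 or 12 where genes were left out), gains and losses included. On this base the reported gains and losses were 3.03 and 3.03% for HDA-1 with atp-2, 3.03 and 0% within dve-1, 6.06 and 9.09% with dve-1, and 6.06 and 6.06% with dve-1 within atp-2. For DVE-1 they were 30.3 and 0% with atp-2, 15.2 and 0% within hda-1, 9.09 and 9.09% with hda-1, and 0 and 15.2% with hda-1 within atp-2. No score or depth accompanies the lists, so a stricter peak threshold could only be stood in for by width. Counting only genes whose 5′ end lay inside a peak, DVE-1 was listed at 21.2 (control), 45.5 (atp-2), 12.1 (hda-1) and 24.2% (hda-1 + atp-2). Over all genes it was listed at 14.4, 23.9, 21 and 25%, above the proteasome genes in both hda-1 lists. Both proteins were listed at 21.2, 45.5, 12.1 and 21.2% of the proteasome genes. HDA-1 losses with atp-2 became 21.2%, and 12.1% within dve-1 RNAi, where gains became 9.09%. HDA-1 gains with dve-1 RNAi became 3.03%, and 18.2% within atp-2, where losses became 9.09%. DVE-1 losses with atp-2 within hda-1 and gains with hda-1 became 3.03%. With at least 50% of the window covered, HDA-1 with atp-2 stood at 54.5% (all genes 22%) and DVE-1 at 12.1, 33.3, 12.1 and 15.2%. DVE-1 stood at 13.3, 22.2, 19 and 22.2% of all genes, below the proteasome genes only in the atp-2 list. Both proteins stood at 12.1, 33.3, 12.1 and 12.1% of the proteasome genes. HDA-1 losses with atp-2 became 30.3%, within dve-1 RNAi gains and losses each became 12.1%, and with dve-1 RNAi gains became 3.03% and losses 18.2%, or 24.2 and 12.1% within atp-2. DVE-1 with atp-2 within hda-1 gained 6.06% and lost 3.03%, and with hda-1 RNAi gained and lost 3.03%. With the widest peaks in lists of equal length, HDA-1 stood at 45.5 (atp-2) and 54.5% (dve-1 + atp-2), against 22.3 and 17.6% of all genes. DVE-1 stood at 39.4 (atp-2), 24.2 (hda-1) and 24.2% (hda-1 + atp-2), against 22.7, 20.7 and 21.6% of all genes. Both proteins stood at 36.4, 24.2 and 21.2% of the proteasome genes in those 3 conditions. HDA-1 then gained 6.06% and lost 30.3% with atp-2, gained 6.06% and lost 12.1% within dve-1, lost 15.2% with dve-1, and gained 21.2% and lost 12.1% with dve-1 within atp-2. DVE-1 gained and lost 12.1% with atp-2, gained and lost 3.03% within hda-1, and gained 0% and lost 15.2% with hda-1. Over the 12 genes not head to head, DVE-1 gains with atp-2 became 8.33% with and without hda-1, HDA-1 losses with atp-2 8.33%, DVE-1 losses with hda-1 16.7%, and gains became 0% for DVE-1 with hda-1 and for HDA-1 with atp-2, with atp-2 within dve-1, and with dve-1. In windows of 250 bp, HDA-1 losses with atp-2 and gains with dve-1 within atp-2 became 9.09%, gains with atp-2 within dve-1 and losses with dve-1 6.06%, gains with dve-1 3.03% and losses with dve-1 within atp-2 0%. In windows of 1000 bp, HDA-1 losses with atp-2 became 0%, gains with atp-2 within dve-1 6.06%, and gains and losses with dve-1 within atp-2, and DVE-1 losses with atp-2, 3.03%. With any transcript's 5′ end, HDA-1 gains with dve-1 became 3.03% in both backgrounds. In the 500 bp upstream only, HDA-1 gains with dve-1 within atp-2 and losses with atp-2 within dve-1 became 3.03%. Without the 8 genes close behind another, HDA-1 gains with dve-1 and losses with dve-1 within atp-2 became 4%, and losses with atp-2 and gains with dve-1 within atp-2 0%. The causes were not tested.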
